A study of Mus musculus with 2 samples.

Results

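Exon peaks of protein-coding genes are the stretches of the mouse genome that the authors' list of BUD31 peaks classes as exon and assigns to a coding transcript. They were chosen by these 2 annotations alone, and 534 of the 16331 peaks in the list met both (3.27%, Wilson 95% interval 3.01% to 3.55%). They name 444 genes, which are 16.4% (15.0% to 17.8%) of the 2710 protein-coding genes named by any peak. The assay was RNA immunoprecipitation sequencing (RIP-seq), in which RNA held by a protein is recovered with an antibody and sequenced, and a peak is a stretch that the authors called from these reads. The 2 groups were an anti-BUD31 immunoprecipitation and an input that took 10% of the total RNA, with 1 library each, both from germ cells isolated by enzymatic digestion of the testis to single cells, from C57BL/6J mice of postnatal day 14. No mutation or drug is named for either group, and the number of mice behind each library is not stated. The list gives neither scores nor reads nor strand. Depth is therefore unknown, no test between libraries was possible and no p-value is given. Intervals below cover counting error only, and neither peaks nor genes are replicates.

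BUD31 is a protein of the spliceosome, the machine that cuts introns out of a new transcript and joins the exons. It belongs to the core that carries out the cutting, so its RNA partners can include unspliced transcripts, introns on their way out and exon ends beside splice sites. Exons hold the protein-coding sequence and make up a small part of most mammalian genes, whose extent is mainly intron. Male germ cells of this age include spermatogonia and cells in meiotic prophase, when chromosomes pair and recombine.

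Peaks lay on 15 chromosomes and coding exon peaks on 11 of them, with 93.4% on the 8 chromosomes that had a peak in 10% or more of their coding genes. All positions fall on a grid of bins, from 200 bp on most of these chromosomes to 230 bp on the X, and 1 bin is the narrowest peak. Of 11 germ cell markers 5 had a peak of some class and 2, Tex11 and Sox3, had an exon peak. Among markers of other testis cells, an exon peak was found for Mylk, the myosin light chain kinase, 1 of 4 genes listed for peritubular myoid cells, and for none of 6 Sertoli, 6 Leydig, 4 macrophage, 4 endothelial and 5 erythroid markers. A peak of any class was found for 3 of the Sertoli, 2 of the myoid, 1 of the Leydig and 1 of the erythroid markers, and for none of the macrophage and endothelial ones. Chromosomes outside the 15 had no peak, and chromosomes 4, 11 and 19 had none assigned to a coding transcript. A marker on such a chromosome could not have a coding exon peak, and the markers were not sorted by chromosome. The absences above are therefore no measure of the purity of the cells. The part of RNA from other cells in the exon peaks was not tested.

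A few exon peaks cover small RNA genes, whose sequences are shown first because a peak there holds more than the exon it is named for. The exon peak of Huwe1, a very large HECT ubiquitin ligase, lies at chrX:151910171-151923510 (13340 bp) in mm10 and covers the hairpins of 2 microRNAs, Mirlet7f-2 and Mir98. The 5′ arms of both share the seed GAGGUAG, the let-7 seed. Further microRNA hairpins lay wholly under the exon peak of Armcx5, an X-linked armadillo repeat gene (chrX:135746001-135747150), and under that of Srrt, a factor of RNA 5′ end handling and microRNA processing (chr5:137296001-137297000). Mature sequences are from RefSeq (GRCm38.p6), 5′ to 3′, with the seed (bases 2 to 8) in capitals.
mmu-let-7f-5p: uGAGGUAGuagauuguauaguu
mmu-miR-98-5p: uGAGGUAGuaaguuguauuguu
mmu-miR-7646-5p: aCAAGAGAacugaucagugcug
mmu-miR-7036a-5p: aGCGGGGUucgguggggaagaga
Of the Huwe1 peak the hairpins take up 83 bp and 108 bp, which is 0.622% and 0.810% of its width. A last hairpin, Mir7038, was touched by 9 bp of the exon peak of Eif3b, a subunit of a translation initiation factor. In the same way the exon peak of Rpl5, a protein of the large ribosomal subunit, covers all 132 bp of the snoRNA gene Gm26387, and the widest exon peak of Dhx9, an RNA helicase, covers a tRNA gene of 73 bp. Whether the reads came from the exon or from the small RNA cannot be told apart in a list without strand or height.

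Some exon peaks also reach an annotated start of their gene. An annotated start site was on hand for the genes of 428 of the 534 exon peaks, and 21 of these 428 covered one (4.91%, 3.23% to 7.38%). They were 10 of 103 peaks of genes without an intron peak (9.71%, 5.36% to 16.96%) and 11 of 325 of genes with one (3.38%, 1.90% to 5.96%), and the 2 intervals overlap. Sox3 is among the genes left out of this count. Some of the covered starts lie inside the gene, as for Prox2 and Rab33a, and do not mark its outer end. A few compact examples without an intron peak are printed with the 100 bases before an annotated start, all of which lie inside the peak. They are Papolb, a testis-specific poly(A) polymerase gene (chr5:142530077-142530176, minus strand), Slc25a1, the mitochondrial citrate carrier (chr16:17928220-17928319, minus strand), Slc25a5, an ADP/ATP carrier of mitochondria (chrX:36795497-36795596, plus strand), and Magea4, a MAGE family gene (chrX:72221917-72222016, plus strand). The sequences are from RefSeq (GRCm38.p6), 5′ to 3′ on the gene's strand, with capitals for 3 motifs found on either strand, the TATA box (TATAAA), the CCAAT box and the GC box (GGGCGG). No printed match overlaps another. The start used for Magea4, at 72222017, lies inside the gene, whose extent begins at 72221015.
Papolb: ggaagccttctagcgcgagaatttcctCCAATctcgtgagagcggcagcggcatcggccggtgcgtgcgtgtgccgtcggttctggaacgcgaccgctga
Slc25a1: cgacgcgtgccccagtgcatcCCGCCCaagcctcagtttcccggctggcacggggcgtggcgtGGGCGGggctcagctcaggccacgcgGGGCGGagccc
Slc25a5: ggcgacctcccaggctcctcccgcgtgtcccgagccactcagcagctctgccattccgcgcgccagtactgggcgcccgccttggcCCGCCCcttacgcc
Magea4: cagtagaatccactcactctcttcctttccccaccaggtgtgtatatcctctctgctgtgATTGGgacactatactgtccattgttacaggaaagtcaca
The 21 genes with such a peak have 22 annotated starts under it. Of these 22 windows 6 held the GC box letters GGGCGG, 4 held CCAAT and 2 held TATAAA, against 24.7%, 18.9% and 5.56% of all 32851 windows of the same length in the table. These are matches of letters and not sites of binding.

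Exon peaks were slightly narrower than intron peaks. Their median width was 1200 bp, with quartiles at 410 bp and 2400 bp and a range from 200 bp to 29210 bp. The 12187 intron peaks of coding genes had a median of 1400 bp (quartiles 615 bp and 3200 bp, range 200 bp to 59110 bp). Counted in bins of their chromosome the medians were 6 and 7. Peaks of a single bin made up 18.5% of exon peaks (15.5% to 22.1%) and 13.1% of intron peaks (12.5% to 13.7%). Coding peaks in 3′ UTRs had a median of 1230 bp over 783 peaks. In genes with both classes, the medians were 1150 bp for 402 exon peaks and 1400 bp for 2813 intron peaks of coding transcripts. The difference in medians is thus seen there as well. These genes had 2932 intron peaks when those under noncoding transcripts are counted too. No test was made, because the peaks come from 1 pair of libraries.

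**Figure D1:**
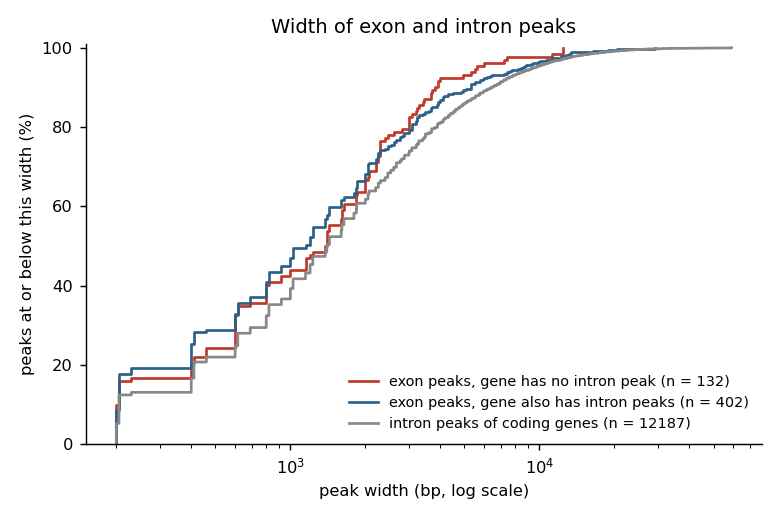
Cumulative share of peaks (%) against peak width (bp, log scale) for exon peaks of genes without an intron peak (n = 132), exon peaks of genes that also have intron peaks (n = 402) and intron peaks of coding genes (n = 12187). The exon curves lie mostly to the left of the intron curve above 2000 bp, with medians of 1390 bp and 1150 bp against 1400 bp.

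The widest exon peak was that of Tab3, an adaptor of the TAK1 kinase, which ran for 29210 bp over chrX:85601861-85631070 and covered 48.2% of the gene. After it came Vcpip1, a deubiquitinase that works with the p97 ATPase (20500 bp), Smpd4, a sphingomyelinase (18800 bp), and Dmxl1 (16400 bp). Huwe1 followed with 13340 bp. The Vcpip1 and Smpd4 peaks run past the end of the gene they are named for. Of the Vcpip1 peak 43.5% overlaps the noncoding RNA gene 1700034P13Rik. The Smpd4 peak covers all 4285 bp of another coding gene, Ccdc74a. Sf3b1 had an exon peak of 13325 bp that covered 31.5% of the gene. It encodes the spliceosome subunit that holds the intron's branch point. Nono, an RNA-binding protein of paraspeckles, had one of 13110 bp, and with its intron peak 95.4% of Nono was covered. Gtf3c2, a subunit of the RNA polymerase III factor TFIIIC, had 12800 bp, and 3110001I22Rik and the chloride channel gene Clcn2 had 12400 bp each. Of these 10 genes 8 also had intron peaks, and 3110001I22Rik and Clcn2 had none. A peak carries a single class, so one that runs over several exons and the introns between them is still an exon peak, and which share of each peak is exon was not analysed here. At the lower end, peaks of 1 bin were named for Brca2, Gper1, Eif3b, Sf3a2, Srsf6 and Rbm39 (200 bp each), for Mars2 (205 bp) and for Smc1a (230 bp).

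Most genes had a single exon peak. This was so for 384 of 444 genes (86.5%, 83.0% to 89.4%), while 42 genes had 2, 14 had 3 and 4 had more. Dnah14, an axonemal dynein heavy chain, had the most with 9, which measured 205 bp to 2050 bp, beside 72 intron peaks. Trrap, the scaffold of histone acetyltransferase complexes, had 6 narrow ones of 200 bp to 800 bp and 18 intron peaks. Cenpf, a kinetochore protein, had 5, from 205 bp to 2255 bp, and 16 intron peaks. Plec, which encodes the cytoskeletal linker plectin, had 4 of 600 bp to 1400 bp and no intron peak in a gene of 60.4 kb. With 3 each, Med12 of the Mediator complex and Stag2 of cohesin had 2 and 8 intron peaks, and Pigm, an enzyme of GPI anchor synthesis, had none. Dnah7c also had 3. The Dnah7a, Dnah7b and Dnah7c copies are close relatives on chromosome 1, so how reads were shared among them is uncertain.

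Of the 444 genes, 118 had no intron peak (26.6%, 22.7% to 30.9%) and 326 had at least 1 (73.4%, 69.1% to 77.3%). Among all coding genes with a peak of any class, 15.8% had no intron peak, but that background contains many genes that were listed because of an intron peak. The 652 genes with a 3′ UTR peak, which like exon genes were listed for a peak outside introns, give a closer comparison: 159 of them had no intron peak (24.4%, 21.2% to 27.8%), and this interval overlaps that of the exon genes. Of the 118 genes 87 had exon peaks and no other class, which is 19.6% of all exon genes (16.2% to 23.5%), and 78 genes rested on a single peak in the whole list. A 3′ UTR peak was found in 10 of the 118 (8.47%, 4.67% to 14.9%) and in 95 of the 326 (29.1%, 24.5% to 34.3%).

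In genes with both classes the intron peaks took up more sequence. They numbered 5 per gene at the median (quartiles 2 and 11) and their summed width had a median of 9618 bp, against 1400 bp for the exon peaks of the same genes. Intron width exceeded exon width in 278 of 326 genes (85.3%, 81.0% to 88.7%). Rabgap1l, a regulator of Rab GTPases, had 148 intron peaks over 269985 bp and 2 exon peaks over 2870 bp. Pmpcb, the beta subunit of the mitochondrial processing peptidase, was among the genes where exon width was the larger, with 12200 bp of exon peak and 1200 bp of intron peak. The gap from an exon peak to the nearest intron peak of its gene had a median of 1380 bp, and 183 of 402 exon peaks (45.5%, 40.7% to 50.4%) lay within 5 bins of one.

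Genes without an intron peak were short. Their extent from start to end in the reference table had a median of 7.43 kb (quartiles 4.54 and 16.5 kb, 114 genes), against 50.5 kb (26.0 and 98.6 kb, 325 genes) for those with both classes and 17.9 kb for all 14867 coding genes on these chromosomes. On the 8 better covered chromosomes, coding genes were divided by extent into 5 classes of equal number. The share of exon genes without an intron peak was 97.4% (37 of 38) in the shortest class, then 58.7%, 18.4% and 7.76%, and 3.39% (4 of 118) in the longest. For 3′ UTR genes the same shares ran from 100% (22 of 22) through 49.3%, 23.1% and 13.04% to 8.80%, and in each class the 2 intervals overlap. Exceptions were few. Only 7 genes over 60 kb had no intron peak (Chd9, Erich1, Gm7173, Gm973, Mark1, Plec and Tcf20), and 7 under 8 kb had one (Atp5b, Esx1, Gpc2, Rpl36a, Srsf6, Tpgs1 and Trmt61a), all named after their values were seen. Of these, Plec and Tcf20 lie on chromosome 15 and Srsf6 on chromosome 2, which had few peaks and are outside the 8 better covered chromosomes. The number of introns per gene was not analysed here.

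**Figure D2:**
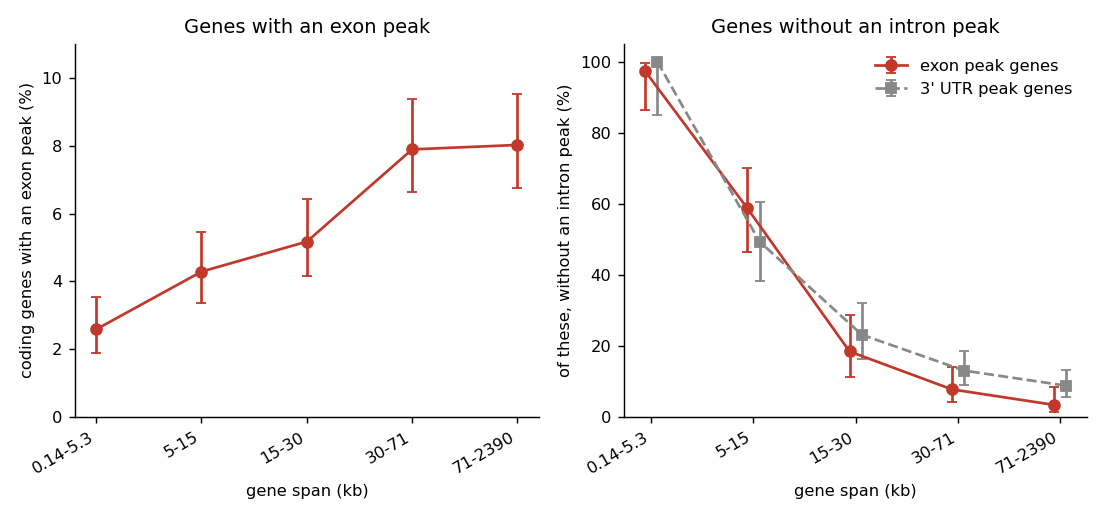
Left, share of coding genes with an exon peak (%) in 5 classes of gene span (kb) on the 8 better covered chromosomes. Right, share of exon peak genes and of 3′ UTR peak genes without an intron peak (%) in the same classes, with Wilson 95% intervals as bars. The left share rises from 2.58% to 8.02% while the right one falls from 97.4% to 3.39% for exon genes and from 100% to 8.80% for 3′ UTR genes.

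Longer genes had an exon peak more often. The share rose from 2.58% (1.89% to 3.53%) of coding genes in the shortest class through 4.29%, 5.17% and 7.89% to 8.02% (6.74% to 9.52%) in the longest. Over all chromosomes with peaks, 2.95% of 14867 coding genes had an exon peak and 18.1% had a peak of any class. Intron peaks were found in 1.97% of the shortest class and 49.2% of the longest, a steeper rise than for exon peaks.

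In a few compact genes the exon peak covered nearly the whole gene. Exon peaks of other short genes covered far less, as in Mars2 (2.88 kb, 7.11%) and Gper1 (4.65 kb, 4.30%). Exon peaks covered over 90% of the extent of 9 genes, all without an intron peak and 7 of them on the X chromosome. They are Sox3, Slc25a5, Magea4, AA414768, Ubqln2, Bex4 and Gspt2 on the X, Rpl32l on chromosome 10 and Gm29733 on chromosome 1. Sox3, a transcription factor of undifferentiated spermatogonia, had 1 exon peak of 2300 bp at chrX:60891351-60893650 over the full 2065 bp of the gene. Ubqln2, which carries ubiquitinated proteins to the proteasome, had one of 5290 bp over 97.3% of its 3331 bp. Over all 439 matched genes the median covered share was 3.82%, with 15.6% in genes without an intron peak and 2.77% in those with one. Of the 32 genes covered over 50%, 27 had no intron peak (84.4%, 68.2% to 93.1%). The more of a gene its exon peaks cover, the less room is left for an intron peak. The lack of one in the 9 and the 27 genes is therefore no separate result.

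**Figure D3:**
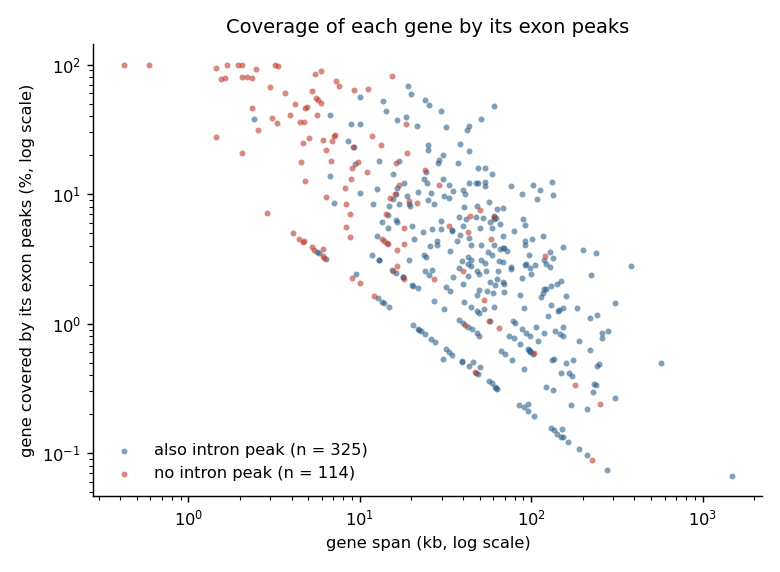
Percent of each gene covered by its exon peaks (log scale) against gene span (kb, log scale), 1 point per gene, for genes with intron peaks (n = 325) and without (n = 114). Genes without an intron peak sit mostly toward the upper left, and 9 of them are covered over 90%. The sharp lower edge is the width of a 1-bin peak.

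Among the genes without an intron peak, Clcn2 and 3110001I22Rik each had an exon peak of 12400 bp, the greatest width. That of Clcn2 covered 81.0% of the gene. Of the 3110001I22Rik peak 97.9% overlaps another coding gene, Bfar, which had 1 intron peak. Atg12 and Atg9a, both of the autophagy machinery, had exon peaks of 11200 bp and 7175 bp, over 63.6% and 64.3% of the gene. Atg12 also had a 3′ UTR peak, and 47.4% of its exon peak overlaps the neighbouring gene Ap3s1. Adprh, which removes ADP-ribose from arginine, had 6000 bp over 75.3%. Psmc2, a proteasome ATPase, had 2 peaks of 5600 bp and 1200 bp. Zfp281, a zinc finger transcription factor, had 4920 bp over 84.8%. The remaining 3 of the 10 widest were genes known by number only, 3110001I22Rik, Gm973 and Gm36049, and Ubqln2, described above, completes the list. Cdk2, the cyclin-dependent kinase needed for meiotic prophase in the male, had 1 exon peak of 2000 bp at chr10:128702801-128704800, over 28.1% of its 7.11 kb. Bud31 itself had no exon peak.

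Exon peaks lay toward the 3′ end of their genes. For 428 exon peaks whose gene has a known strand and holds the peak's midpoint, 32.9% (28.7% to 37.5%) fell in the last of 5 equal stretches of the gene and 9.11% (6.74% to 12.2%) in the first. Intron peaks of coding genes were spread more evenly, with 16.2% (15.4% to 16.9%) in the last stretch and 21.1% in the first. The intron peaks of the same genes gave 16.8% and 18.9%. The lean was alike in exon genes without an intron peak (34.0% in the last stretch, 25.6% to 43.6%) and with one (32.6%, 27.7% to 37.9%). The median position was 66.1% of the way along for exon peaks and 46.9% for intron peaks. Where the exons of each gene lie was not analysed here. Examples are the exon peaks of Hnrnpm and Rbmx2, at 91.4% and 93.1% of the gene, while that of Cdk2 lies at 17.6%.

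**Figure D4:**
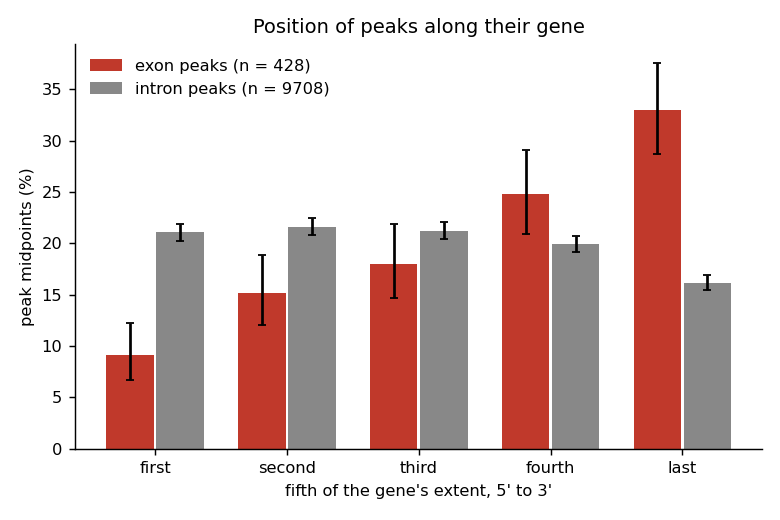
Percent of peak midpoints in each of 5 equal stretches of the gene's extent, from 5′ to 3′, for exon peaks (n = 428) and intron peaks (n = 9708) of coding genes, with Wilson 95% intervals as bars. Exon peaks climb from 9.11% in the first stretch to 32.9% in the last, and intron peaks fall from 21.1% to 16.2%.

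The X chromosome held exon peaks in 100 of its 966 coding genes (10.4%, 8.59% to 12.4%), against 4.87% (4.37% to 5.43%) of 6386 on the 7 better covered autosomes. These autosomes differed widely, from 0.575% of coding genes on chromosome 8 to 6.92% on chromosome 12 and 8.39% on chromosome 1. The pooled value therefore mixes unlike chromosomes, and whether the X differs from chromosome 1 was not tested. The values by gene span pool these autosomes too. The share was higher on the X in each class of gene span, from 5.84% against 1.78% in the shortest to 17.2% against 6.97% in the longest. As a share of coding peaks of all classes, exon peaks were alike on both, 3.65% (3.04% to 4.39%) on the X and 3.55% (3.22% to 3.91%) on those autosomes. X exon peaks had a median width of 1955 bp over 110 peaks. The medians were 1230 bp on chromosomes 1 and 12, 600 bp on 5, 900 bp on 8, 800 bp on 10, 2400 bp on 16 and 2600 bp on 18. Genes without an intron peak made up 35% of X exon genes (26.4% to 44.7%) and 22.4% (18.2% to 27.3%) on the autosomes, and their intervals overlap in every class of span. On the chromosomes with few peaks it was 12 of 27 genes. Med12, Stag2, Huwe1, Tab3, Nono, Kdm6a and Phf8 are among the X genes with both classes.

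The genes were sorted into 21 groups by words in their names, 20 by function and 1 for genes without a functional name. Genes whose names lack these words are outside a group, whatever their function. Of the 444 genes 176 (39.6%) fell into at least 1 group, and 148 (33.3%) into at least 1 of those by function. Group shares below are of the group's members with a peak of any class, beside 16.4% over all coding genes with a peak. The groups were not tested against one another.

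**Figure D5:**
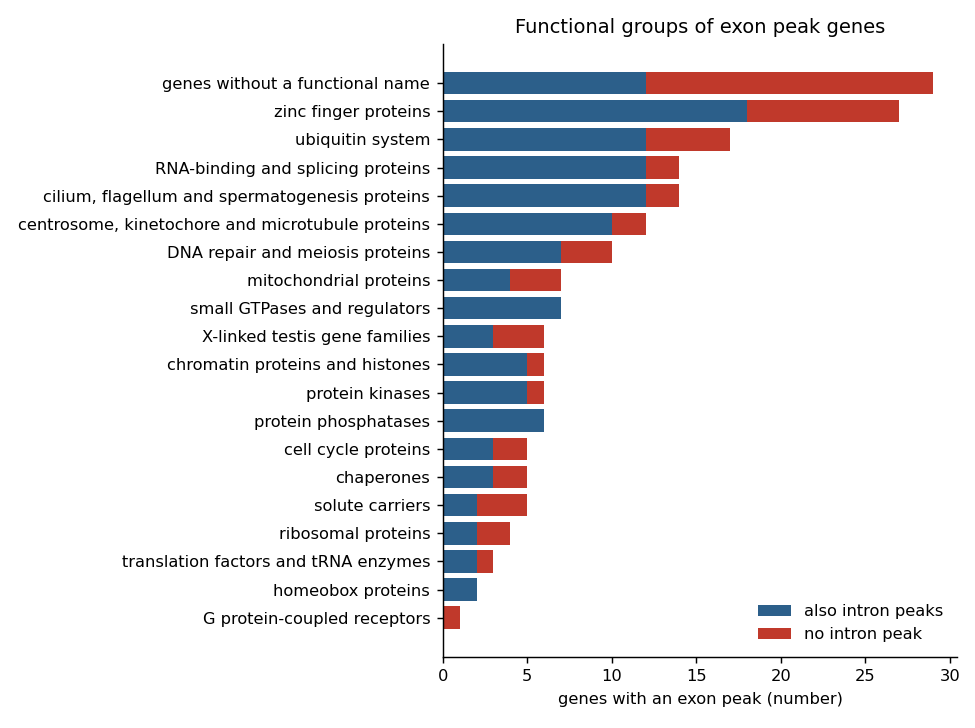
Number of genes with an exon peak in each functional group, split into genes that also have intron peaks and genes without. Genes without a functional name (29, of which 17 lack an intron peak) and zinc finger genes (27, of which 9 lack one) are the largest groups.

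DNA repair and meiosis genes had an exon peak in 10 of 25 members (40%, 23.4% to 59.3%). Smc6, of a complex that resolves recombination intermediates, had the widest at 8610 bp. Other members were Marf1 with 3800 bp, Mcm9, a helicase of homologous recombination, with 3200 bp and Spidr with 2000 bp. The exon peak of Tex11, an X-linked meiosis gene, was 1380 bp wide beside 37 intron peaks. Mdc1, a DNA damage adaptor, had 1 exon peak of 1000 bp at chr17:35853001-35854000 and no other peak. Hfm1, a crossover helicase, had 600 bp, and the cohesin subunit Smc1a and the recombination mediator Brca2 had 1 bin each. Marf1 and Mdc1 were among the 3 without an intron peak. Chromosome 17, where Mdc1 lies, had few peaks and is outside the better covered chromosomes.

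RNA-binding and splicing genes had an exon peak in 14 of 69 members (20.3%, 12.5% to 31.2%), of which 12 also had intron peaks. Among these 14, Sf3b1 and Dhx9 had the most sequence in exon peaks, 13325 bp and 10455 bp. Nono, with 13110 bp, was missed by the words used in sorting and is outside this group. Rbmx2, a splicing factor of the X chromosome, had 2300 bp and Ddx1, an RNA helicase, 1845 bp. Nop58, of the box C/D snoRNA particle, had 1435 bp. Among hnRNP genes Hnrnpdl had 1400 bp and no intron peak, and Hnrnpm had 1200 bp and 3 intron peaks. The splicing genes Sf3a2, Srsf6 and Rbm39 had 1 bin each. Sf3a2 and Hnrnpdl were the 2 genes of the group without an intron peak.

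The cilium, flagellum and spermatogenesis group had 14 of 50 members (28%, 17.5% to 41.7%). Its dynein heavy chains came first, Dnah7c with 10660 bp in 3 peaks, Dnah14 with 8405 bp and Dnah7a with 4510 bp. Esx1, a homeobox gene of spermatogenesis, had 2760 bp and Papolb 2000 bp. In the centrosome, kinetochore and microtubule group 12 of 44 members (27.3%, 16.3% to 41.8%) had one. There Cenpf had 5740 bp, Ttll4, an enzyme that modifies tubulin, 4305 bp, and the centrosomal genes Cep76 and Cep350 3600 bp and 3485 bp. Tubb4b, a beta tubulin, and Mark1, a kinase of microtubule-binding proteins, were the 2 without an intron peak. Tubb4b lies on chromosome 2, which had few peaks.

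Zinc finger genes gave 27 of 107 members (25.2%, 17.96% to 34.2%), and 9 of the 27 had no intron peak. Zfp275 had 7590 bp, Zfp281 4920 bp, Zmym3 3680 bp and Zfp513 3000 bp. Ubiquitin genes gave 17 of 113 (15.0%, 9.61% to 22.8%). Usp37, a deubiquitinase, had 10045 bp, Lonrf3 9430 bp, the ubiquitin-activating enzyme gene Uba1 7130 bp in 2 peaks and Ubqln2 5290 bp. For Huwe1 and Vcpip1 the name used in sorting does not hold the word ubiquitin, so they are outside this group. Chromatin genes gave 6 of 36 (16.7%, 7.87% to 31.9%), led by the histone demethylases Phf8 with 12190 bp and Kdm6a with 3680 bp, then Baz1b with 2000 bp and Brwd1 with 1200 bp.

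Ribosomal protein genes had an exon peak in 4 of 7 members (57.1%, 25.05% to 84.2%), with 3200 bp for Rpl39l, 2200 bp for Rpl5, 920 bp for Rpl36a and 800 bp for Rpl32l. Ribosomal protein genes have many processed copies, so the assignment of their reads is uncertain. Mitochondrial genes gave 7 of 63 (11.1%, 5.49% to 21.2%), with 12200 bp for Pmpcb, 3910 bp for Slc25a5, 3895 bp for Ndufs1, a subunit of respiratory complex I, and 2400 bp for Slc25a1. Solute carriers gave 5 of 53 (9.43%, 4.10% to 20.3%), 3 of them without an intron peak. Slc5a3, an inositol transporter, was the third with 3400 bp, and Slc16a7, a monocarboxylate transporter, had 400 bp and 1 intron peak. Translation factors and tRNA enzymes gave 3 of 25, Iars2 with 1230 bp in 2 peaks, Mars2 with 205 bp and Eif3b with 200 bp. Chaperones gave 5 of 22, among them Hsph1 with 1600 bp, Sil1 with 800 bp, Hsp90b1 with 600 bp and Cct2 with 400 bp.

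Among the signalling groups, kinases gave 6 of 52 (11.5%, 5.40% to 23.0%), with 4830 bp for Araf, 2000 bp for Cdk2, 1435 bp for Map4k4 and 920 bp for Map3k15. Other kinase genes with an exon peak, such as Irak1 (5750 bp) and Nek9 (2255 bp), were missed by the words used in sorting. The share is therefore not that of all kinases. Phosphatase genes gave 6 of 34 and small GTPase genes and their regulators 7 of 34, and all 13 also had intron peaks. Ptpn4 had 2460 bp of exon peak among the phosphatases, then Ppp2r5e 1230 bp, Ptpn21 820 bp and Ppp1r2 800 bp. Arhgap5 had 5330 bp in the GTPase group, then Rabgap1l 2870 bp, Rab33a 1840 bp and Dock11 1380 bp. Cell cycle genes gave 5 of 39, with 2200 bp for Dmtf1 and 615 bp for Ccnk beside Cdk2. Of 16 homeobox genes Esx1 and Prox2 had an exon peak. Of 16 genes sorted as G protein-coupled receptors Gper1 had one of 200 bp, and of 12 sorted as cell adhesion genes none did. Htr2b, a serotonin receptor gene with an exon peak of 10660 bp, was missed by the words used in sorting and is outside the receptor group. Both Htr2b and this peak lie wholly inside the extent of Psmd1, which had 10 intron peaks.

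X-linked testis gene families had 6 of 24 members with an exon peak (25%, 12.0% to 44.9%). Magea4 had 3680 bp, the RNA export factor genes Nxf3 and Nxf2 3220 bp and 1150 bp, and Mageb4 2990 bp. Xlr and Xlr4a had 920 bp each. Magea4, Mageb4 and Xlr4a had no intron peak. These families hold similar copies, and how the authors placed reads shared by several copies is not given in the sources used here. Genes without a functional name numbered 29 of 142 (20.4%, 14.6% to 27.8%), and 17 of the 29 had no intron peak (58.6%, 40.7% to 74.5%). The widest were 3110001I22Rik with 12400 bp, Gm973 with 7380 bp, BC055324 with 5945 bp and Gm36049 with 5520 bp.

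Some exon peaks lie over more than 1 gene. All 528 exon peaks whose gene was matched overlap that gene, and 54 of 534 (10.1%, 7.83% to 12.96%) also overlap another gene, 37 of them (6.93%, 5.07% to 9.40%) another coding gene. In 27 cases the peak lay wholly inside the extent of another coding gene, and 21 of these belonged to genes without an intron peak of their own. For 18 of the 21 the other gene carried an intron peak. Papolb (2000 bp) lies inside Radil, which had 7 intron peaks. Utp14b, a gene of ribosome production in germ cells, had an exon peak of 3075 bp inside Acsl3, which had 5. Rpl32l lies inside Map7 and Msl3l2 inside Tbc1d32, and each of these outer genes had 2 intron peaks. Gm29733, at 420 bp the shortest gene with an exon peak, lies inside Atf6, which had 33. Cdk2 and Ldhal6b lie inside the annotated extents of Pmel and Tmem242, which had no peak. When intron peaks of any name over the gene's extent are counted, 103 of 439 matched exon genes (23.5%) had none. Without strand, which of 2 overlapping genes gave the RNA cannot be told apart.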

How the data were processed

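RNA was measured in 2 libraries of mouse germ cells, anti-BUD31 and input. The submitters' processing notes name TopHat2 2.0.13 and the mm10 build as what the authors used. How peaks were called, at which threshold, how the input was used and which annotation was taken is not stated in the sources used. The deposited values are, per the file headers, other than counts: the start and end of each peak, with a class, transcript, gene number and kind of transcript. Depth is unknown.

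Width is end minus start plus 1. Peaks were joined to genes by gene number. An intron peak of a gene counts whatever kind of transcript it names, since 28 of the exon genes had 132 further peaks under noncoding transcripts, 119 of them intron. Gene extents came from the RefSeq table of GRCm38.p6 (mm10), where 439 of 444 exon genes matched, and an overlap was at least 1 bp. Shares have Wilson 95% intervals. A gene's strand came from the RefSeq promoter table. Python 3.11.15, pandas 2.3.3, numpy 2.4.6 and scipy 1.17.1 were used, and the code was tested on simulated peaks.

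The members, gene lists and groups were chosen with earlier results of these data known, and some word patterns of the groups were corrected after their members were seen. Named genes are Cdk2, Mdc1, Sox3 and Bud31, the 10 with the widest exon peak, the 10 with the most exon peaks, the 10 widest without an intron peak, up to 4 per group by summed exon width, and the narrowest. Others are named as examples chosen after their values were seen. A few genes that the rule would name are not reported here. Alternatives tried were the overlap rule, wider peaks only, other classes, the better covered chromosomes, joining by symbol, width in bins, curated transcripts and leaving out the X chromosome. Exon number, exon position and peak strength were not analysed here.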

Additional observations from a re-analysis of the deposited data

How the results depend on the processing

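The share of exon genes without an intron peak (26.6%) lay between 19.6% and 36.3% over the alternatives. It was 19.6% when a peak of any other class counted as well, and 36.3% (81 of 223 genes) with exon peaks named by a curated transcript only, a setting added after the data were seen. With intron peaks of coding transcripts only, also added later, it was 27.7%. Keeping only peaks at or above the median width of their chromosome lowered the share of coding genes with an exon peak from 2.95% to 1.64%, since fewer peaks remain. The median width of 1200 bp was 6 when counted in bins and 1400 bp with only the widest peak of each gene. In genes without an intron peak 45.8% fell into a group, against 39.6% of all exon genes. With the group of genes that have no functional name left out, added after the data were seen, these shares were 32.2% (38 of 118) and 33.3% (148 of 444), so the order turned round. The better covered chromosomes held 97.0% of coding peaks of all classes and 93.4% of exon peaks. With another gene over at least 50% of the peak, 6.74% of exon peaks overlapped one. The ratio of exon to intron median width stayed below 1 in both alternatives tried. No paired analysis was possible because each group has 1 library. For the same reason no library could be left out, and with no read counts the depth limits of these peaks are unknown.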
